A study of Mus musculus with 18 samples.

Results

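The MYC family and its partner genes were described across mouse RNA-sequencing libraries: the 3 paralogues Myc, Mycn and Mycl, their shared partner Max, and the MAX-binding genes Mxd3, Mxd4, Mxi1, Mnt and Mga. The 9 genes were found by their symbols, and all 9 were listed among the 55183 genes of the cell table and among the 19464 genes of the brain table. The cell groups were PTCP53 304 cells after 144 h of CT-179, 144 h of vehicle, 24 h of CT-179 and 24 h of vehicle. All of these cells carry the genotype Ptch1+/-; Trp53-/- and are labelled as Sonic hedgehog (SHH) medulloblastoma, a tumour of the cerebellum. The line is 1 culture line, so it stands for 1 tumour. The brain groups were whole brains of mice labelled Ptch1+/-; IR after 12 days of CT-179 or of vehicle, dosed from postnatal day 3 to postnatal day 15. The labels leave IR unexplained. CT-179 is described in them as an inhibitor of the transcription factor OLIG2. Each of the 6 groups held 3 libraries. The labels do not say that the 3 libraries of a group came from different cultures or animals. The p-values therefore measure only the spread among libraries, part of which may be technical.

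MYC, MYCN and MYCL are basic helix-loop-helix leucine zipper transcription factors that bind DNA as dimers with MAX, mostly at the E-box letters CACGTG, and raise the expression of genes for ribosome assembly, metabolism and cell division. MAX also pairs with MXD3, MXD4, MXI1 and MNT, which bring SIN3 and histone deacetylase complexes to the same letters and lower expression, and with MGA, a very large protein of a variant Polycomb complex. In the developing cerebellum, SHH signalling raises Mycn in granule neuron precursors, and Mycn and Myc are known drivers of medulloblastoma.

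Some libraries stood apart. At 144 h, CT-179 replicate 2 correlated with the other 2 libraries of its group at Pearson's r 0.941 and 0.943 across genes, against 0.996 or more for all other pairs of cell libraries within a group. Its FPKM values summed to 425478, against 308014 to 348964 in the other cell libraries. FPKM are fragments scaled by gene length and library depth, so levels of different genes can be set side by side per length. Because 1 fit holds all 12 cell libraries, this library also widens the error at 24 h, and results are given with it and without it. Among the brains, vehicle replicate 2 appears to have been left out of the authors' own comparison. Over 13365 genes, their fold change correlated at r 0.996 with vehicle replicates 1 and 3 over CT-179. With all 3 vehicle replicates r was 0.579. Vehicle replicate 2 also read like the CT-179 brains at Tpm3-rs7, a gene picked after its values were seen. Tpm3-rs7 had 21.0, 16.9 and 16.4 FPKM in CT-179 brains and 0.223, 16.7 and 0.304 FPKM in vehicle brains. The word vehicle also stands in the titles of the CT-179 brains, so each brain direction depends on the treatment label. The level of Olig2, which encodes the protein that CT-179 inhibits, ranged over 180 to 216 FPKM with CT-179 and 197 to 206 FPKM with vehicle at 144 h, and over 389 to 411 FPKM with CT-179 and 366 to 395 FPKM with vehicle at 24 h. The markers Atoh1 and Barhl1 of granule neuron precursors, the cells from which this tumour class arises, were at or near 0 in the cells. No cell library was above 0.0254 FPKM for them, while Gli1 and Ptch1 of the SHH pathway were present. They belong to 9 listed markers of granule neuron precursors and SHH medulloblastoma. Of these 9, 6 reached a mean of 1 FPKM in each 144 h cell group and 5 in each 24 h cell group. Reads implied from the lowest values summed over genes to between 2.96e+07 and 7.11e+07 in cells and between 1.76e+07 and 6.32e+07 in brains. The value of 1 read put library depth lower, at 2.22e+07 to 5.33e+07 in cells and 1.27e+07 to 5.01e+07 in brains. The cause of this gap was not tested. Brain vehicle replicate 2 was the lowest brain by both measures. At these depths the fewest reads implied for a member were 23, for Mycn at 24 h.

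RefSeq promoter windows on GRCm38.p6 (250 bases before the start of a transcript to 50 after it) were given for 8 of the 9 genes. They were searched on both strands for the E-box CACGTG, for the E2F letters TTTGGCGC, TTTCGCGC and TTTCCCGC, and for the GLI letters TGGGTGGTC. These 4 windows are shown because they are the member windows that held a match, and the window of Cdk4, a known MYC target and the partner kinase of the D cyclins, is shown for comparison. The capitals mark the E2F letters in Mycn and the E-box in the other genes. The Mycn window lies on the minus strand at chr12:12941787-12942086, that of Max on the minus strand at chr12:76962199-76962498, that of Mxd4 on the minus strand at chr5:34187661-34187960, that of Mnt on the plus strand at chr11:74830674-74830973, and that of Cdk4 on the plus strand at chr10:127063285-127063584.
Mycn: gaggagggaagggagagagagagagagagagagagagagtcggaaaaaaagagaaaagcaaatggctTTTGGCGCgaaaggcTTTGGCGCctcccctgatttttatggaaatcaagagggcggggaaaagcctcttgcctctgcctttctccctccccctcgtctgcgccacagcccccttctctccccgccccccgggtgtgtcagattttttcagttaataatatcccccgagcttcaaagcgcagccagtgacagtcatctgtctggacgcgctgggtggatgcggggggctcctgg
Max: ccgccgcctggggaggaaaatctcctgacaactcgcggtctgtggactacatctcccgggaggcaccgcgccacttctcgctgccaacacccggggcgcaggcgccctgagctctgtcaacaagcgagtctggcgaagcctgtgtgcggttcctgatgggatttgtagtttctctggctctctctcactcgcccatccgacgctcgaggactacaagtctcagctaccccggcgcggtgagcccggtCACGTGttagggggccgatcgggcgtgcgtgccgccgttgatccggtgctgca
Mxd4: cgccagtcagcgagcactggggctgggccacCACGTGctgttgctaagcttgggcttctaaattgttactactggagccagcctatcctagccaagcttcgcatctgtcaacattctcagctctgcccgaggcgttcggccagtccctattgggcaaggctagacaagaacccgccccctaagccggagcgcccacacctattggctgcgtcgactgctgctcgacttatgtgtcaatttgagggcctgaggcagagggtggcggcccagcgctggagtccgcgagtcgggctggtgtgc
Mnt: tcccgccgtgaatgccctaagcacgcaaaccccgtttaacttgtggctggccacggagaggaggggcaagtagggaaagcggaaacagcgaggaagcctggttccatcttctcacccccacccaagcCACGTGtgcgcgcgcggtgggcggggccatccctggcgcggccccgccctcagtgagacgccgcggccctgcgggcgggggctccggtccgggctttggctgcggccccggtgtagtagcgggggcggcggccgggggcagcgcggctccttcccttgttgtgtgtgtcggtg
Cdk4: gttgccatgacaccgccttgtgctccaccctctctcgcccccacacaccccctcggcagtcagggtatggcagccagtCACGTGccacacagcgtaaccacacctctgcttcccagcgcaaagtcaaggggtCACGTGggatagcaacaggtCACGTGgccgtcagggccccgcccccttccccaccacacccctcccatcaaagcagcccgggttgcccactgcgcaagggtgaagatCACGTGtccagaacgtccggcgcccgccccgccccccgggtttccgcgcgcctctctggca

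The Mycn window held the E2F letters at 183 and 168 bases before the start, on the printed strand, and 1.84% of all 32851 windows held such letters. The E-box began 3 bases before the start in Max, so that its letters run across the start, 123 bases before it in Mnt and 219 bases before it in Mxd4. Bases after the start in the Max window were not found in a GENCODE transcript of Max, while those of the other windows shown were found in theirs. The Max position is therefore less sure. At least 1 E-box was found in 7.15% of all windows. No E-box was found in the windows of Mycn, Mycl, Mxd3, Mxi1 and Mga, and no GLI letters in any member window, which 0.253% of all windows held. The Cdk4 window held 4 E-boxes, at 172, 118, 98 and 11 bases before the start. A match describes these letters only and says nothing of what binds there.

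In cells at 24 h, Myc was the most abundant of the 9 genes and Mycn the least. At 144 h the order was different: Mxd4 and Max stood above Myc, Mycl stood among the middle genes, and Mxd3 was the lowest. Levels in the brain come from a table that was normalized separately and are set beside the cell values without a test.

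Myc (ENSMUSG00000022346.16, mm10 chromosome 15, 61985391 to 61990374, plus strand) is the founding paralogue. It had 27.7, 35 and 29.0 FPKM in CT-179 cells and 29.1, 29.0 and 26.6 FPKM in vehicle cells at 144 h. At 24 h it had 89.1, 91.9 and 93.3 FPKM in CT-179 cells and 105, 98.3 and 90.1 FPKM in vehicle cells. The CT-179 and vehicle libraries overlapped at each time, and every 24 h library stood above every 144 h library. In brain Myc had 2.16, 2.45 and 1.88 FPKM with CT-179 and 1.69, 2.35 and 1.75 FPKM with vehicle.

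Mycn (ENSMUSG00000037169.15, mm10 chromosome 12, 12936093 to 12941914, minus strand) is the paralogue that SHH signalling raises in the cerebellum. At 144 h it had 3.24, 3.58 and 3.39 FPKM in CT-179 cells and 2.61, 2.76 and 2.91 FPKM in vehicle cells. At 24 h it had 0.279, 0.264 and 0.385 FPKM in CT-179 cells and 0.247, 0.264 and 0.314 FPKM in vehicle cells. The order was CT-179 at 144 h, vehicle at 144 h, then the 24 h groups, which overlapped. Brain values were 2.65, 3.59 and 3.91 FPKM with CT-179 and 2.6, 5.27 and 3.08 FPKM with vehicle, so the brain libraries spanned the 144 h cell values.

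Mycl (ENSMUSG00000028654.13, mm10 chromosome 4, 122995652 to 123002485, plus strand), the paralogue first known from lung cancer, had 18.6, 16.8 and 18.8 FPKM in CT-179 cells and 18.6, 19.0 and 17.9 FPKM in vehicle cells at 144 h. The 24 h values were 3.91, 4.19 and 3.63 FPKM in CT-179 cells and 3.73, 3.76 and 3.44 FPKM in vehicle cells. Treatment groups overlapped at each time and the 144 h libraries stood above all 24 h libraries. In brain it had 6.77, 7.89 and 8.77 FPKM with CT-179 and 7.06, 8.13 and 6.47 FPKM with vehicle, the highest paralogue of the 3 in that tissue.

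**Figure D1:**
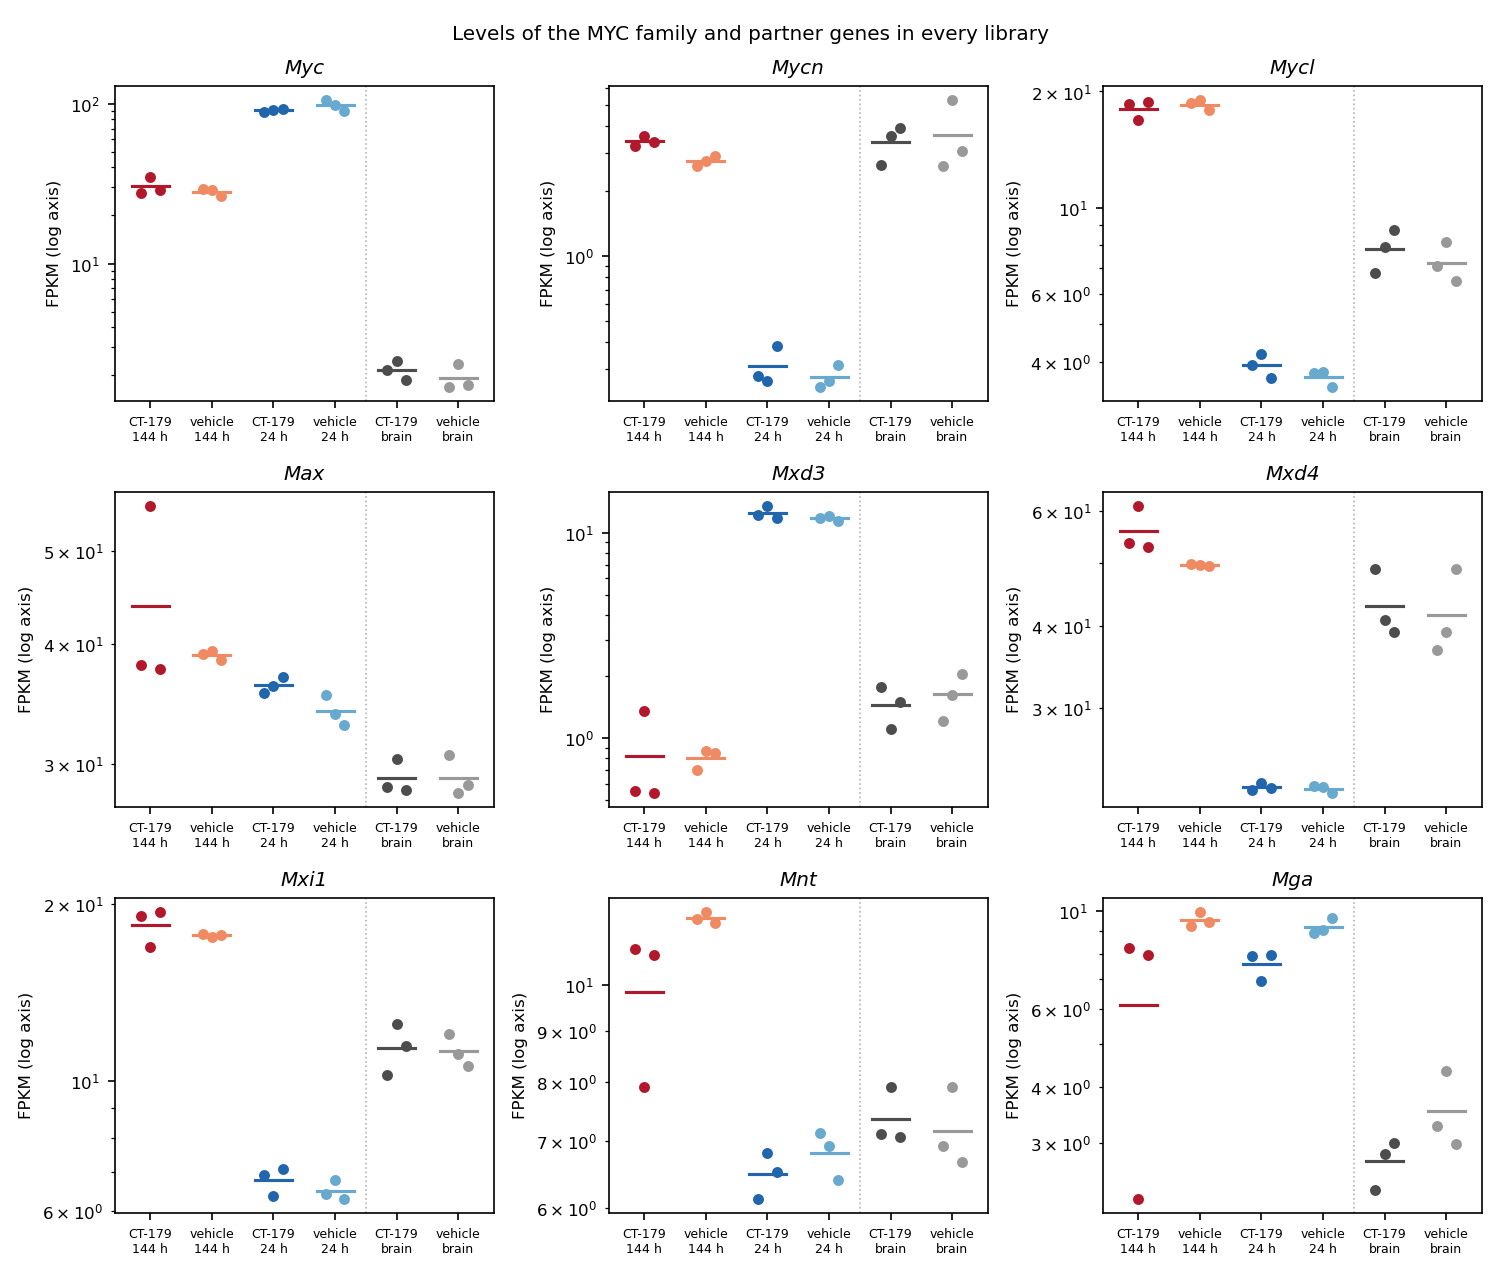
Each panel plots 1 gene, with FPKM on a log axis, for CT-179 and vehicle cells at 144 h and 24 h and CT-179 and vehicle brains; points are the 3 libraries of a group and lines their mean. Myc and Mxd3 are lower at 144 h than at 24 h, Mycn, Mycl, Mxd4, Mxi1 and Mnt are higher, and the second CT-179 library at 144 h lies away from its group for Max at 55.6, Mxd3 at 1.36 and Mga at 2.24 FPKM.

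Max (ENSMUSG00000059436.13, mm10 chromosome 12, 76937269 to 76962201, minus strand), the partner that the whole network shares, varied little. It had 38.1, 55.6 and 37.7 FPKM in CT-179 cells and 39.0, 39.3 and 38.5 FPKM in vehicle cells at 144 h. Values at 24 h were 35.6, 36.2 and 37.0 FPKM in CT-179 cells and 35.4, 33.9 and 32.9 FPKM in vehicle cells. Apart from CT-179 144 h replicate 2, all cell libraries stood between 32.9 and 39.3 FPKM. The brains had 28.4, 30.4 and 28.2 FPKM with CT-179 and 30.6, 28.0 and 28.5 FPKM with vehicle.

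Mxd3 (ENSMUSG00000021485.14, mm10 chromosome 13, 55325168 to 55329758, minus strand) is a MAX partner known from dividing cells, granule neuron precursors among them. It had 0.552, 1.36 and 0.541 FPKM in CT-179 cells and 0.70, 0.868 and 0.845 FPKM in vehicle cells at 144 h. In the 24 h libraries Mxd3 had 12.3, 13.5 and 11.8 FPKM in CT-179 cells and 11.9, 12.1 and 11.4 FPKM in vehicle cells. The times did not overlap, and the treatments overlapped within each time. Brains had 1.77, 1.10 and 1.5 FPKM with CT-179 and 1.22, 1.62 and 2.06 FPKM with vehicle.

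Mxd4 (ENSMUSG00000037235.13, mm10 chromosome 5, 34173883 to 34187720, minus strand) is a MAX partner known from differentiating cells. It had 53.7, 60.9 and 52.9 FPKM in CT-179 cells and 49.8, 49.6 and 49.4 FPKM in vehicle cells at 144 h. The 24 h libraries had 22.5, 23.1 and 22.7 FPKM in CT-179 cells and 22.9, 22.7 and 22.3 FPKM in vehicle cells. It was the highest of the 9 genes by mean at 144 h and in brain, where it had 48.9, 40.9 and 39.2 FPKM with CT-179 and 36.8, 39.2 and 48.9 FPKM with vehicle. Max overlapped it in CT-179 cells at 144 h through replicate 2.

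Mxi1 (ENSMUSG00000025025.14, mm10 chromosome 19, 53310518 to 53375810, plus strand), a MAX partner of the same repressor class, had 19.1, 16.9 and 19.4 FPKM in CT-179 cells and 17.8, 17.5 and 17.7 FPKM in vehicle cells at 144 h. Mxi1 at 24 h had 6.91, 6.37 and 7.08 FPKM in CT-179 cells and 6.43, 6.79 and 6.30 FPKM in vehicle cells. Treatments overlapped at each time and the times did not. In brain it ranged over 10.2 to 12.5 FPKM with CT-179 and 10.6 to 12.0 FPKM with vehicle.

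Mnt (ENSMUSG00000000282.12, mm10 chromosome 11, 74830920 to 74845725, plus strand) is the broadly present MAX partner. It had 10.9, 7.92 and 10.7 FPKM in CT-179 cells and 11.6, 11.8 and 11.5 FPKM in vehicle cells at 144 h, and 6.13, 6.81 and 6.52 FPKM in CT-179 cells and 7.12, 6.92 and 6.40 FPKM in vehicle cells at 24 h. The 4 groups stood in the order vehicle at 144 h, CT-179 at 144 h, then the overlapping 24 h groups. In brain it ranged over 7.06 to 7.92 FPKM with CT-179 and 6.66 to 7.91 FPKM with vehicle.

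Mga (ENSMUSG00000033943.15, mm10 chromosome 2, 119897228 to 119969581, plus strand) has 15340 exonic bases and is longer than 97.6% of the genes tested. It had 8.22, 2.24 and 7.93 FPKM in CT-179 cells and 9.21, 9.91 and 9.41 FPKM in vehicle cells at 144 h. At 24 h it had 7.91, 6.94 and 7.93 FPKM in CT-179 cells and 8.89, 9.06 and 9.65 FPKM in vehicle cells. The CT-179 libraries stood below the vehicle libraries at each time, while the vehicle groups of the 2 times overlapped. Brains had 2.35, 2.83 and 3.0 FPKM with CT-179 and 3.3, 4.34 and 2.98 FPKM with vehicle, which overlapped.

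The summed FPKM of Myc, Mycn and Mycl was 52.0 ± 3.01 in CT-179 cells and 49.5 ± 1.85 in vehicle cells at 144 h, and 95.7 ± 2.12 in CT-179 cells and 102 ± 7.61 in vehicle cells at 24 h (SD, n = 3 each). Myc held 58.6 ± 3.94% of that sum with CT-179 and 57.0 ± 0.886% with vehicle at 144 h, and 95.6 ± 0.258% with CT-179 and 96.1 ± 0.188% with vehicle at 24 h. Mycl held 34.9 ± 3.88% with CT-179 and 37.4 ± 0.396% with vehicle at 144 h, and 4.09 ± 0.322% with CT-179 and 3.58 ± 0.145% with vehicle at 24 h. The sum therefore differed less between times than Myc did, and Mycl made up part of it at 144 h. In brain the sum was 13.4 ± 1.57 with CT-179 and 12.8 ± 2.56 with vehicle, of which Mycl held 58.5 ± 1.80% and 57.0 ± 5.29%, Mycn 25.2 ± 2.06% and 27.9 ± 5.29%, and Myc 16.4 ± 3.05% and 15.1 ± 0.320%, CT-179 brains first in each pair.

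Mxd3, Mxd4, Mxi1, Mnt and Mga together gave 1.75 ± 0.128 times the sum of the 3 paralogues in CT-179 cells and 1.81 ± 0.0626 times in vehicle cells at 144 h. At 24 h this ratio was 0.587 ± 0.0113 in CT-179 cells and 0.561 ± 0.0363 in vehicle cells. The MAX-binding repressor genes thus outweighed the paralogues at 144 h and the paralogues outweighed them at 24 h, as transcript levels per length. In brain the ratio was 5.01 ± 0.944 with CT-179 and 5.23 ± 1.12 with vehicle. These sums rest on the transcripts of the genes named, without Max, and no protein was measured.

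**Figure D2:**
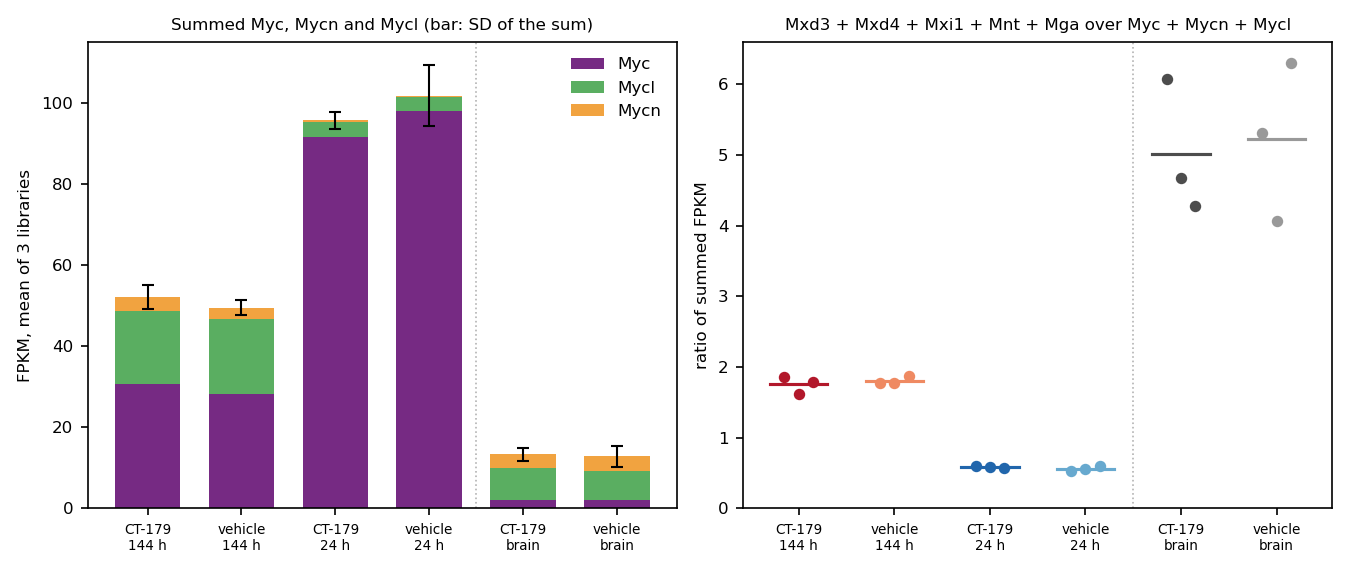
Left, mean FPKM of Myc, Mycl and Mycn stacked per group, with the SD of the summed value over 3 libraries; right, the ratio of summed Mxd3, Mxd4, Mxi1, Mnt and Mga FPKM to summed Myc, Mycn and Mycl FPKM, 1 point per library and a line at the mean. The paralogue sum is 52.0 and 49.5 at 144 h and 95.7 and 102 at 24 h (CT-179, vehicle), and the ratio lies above 1 at 144 h and in brain and below 1 at 24 h.

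The comparison of 144 h with 24 h in vehicle cells asked how the genes differed with time in culture when no drug was present. Between these times 5 members were higher at 144 h (Mycl, Mycn, Mxi1, Mxd4 and Mnt), 2 were lower (Myc and Mxd3), and Max and Mga did not pass. That is 7 of 9, beside 66.5% of all genes tested, of which 34.1% were higher and 32.4% lower, so the count of members is near the background. The test was limma on log2(FPKM + 1), with Benjamini-Hochberg adjustment over 12510 genes. Without CT-179 144 h replicate 2 the background was 87.7%, and 8 of 9 members passed, the same 7 and Max. The libraries of the 2 times did not overlap for 8 members, all but Mga, beside 87.5% of all genes. A member can pass the filter on low values through 1 time alone: Mycn reached 1 FPKM in 6 of 6 libraries at 144 h and 0 of 6 at 24 h, and Mxd3 in 6 of 6 at 24 h and 1 of 6 at 144 h.

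Among the paralogues, Myc in vehicle cells averaged 0.288 times its 24 h level at 144 h, and fell by 1.76 on the log2 scale (SE 0.0905, adjusted p = 3.2e-08). Mycn averaged 10.03 times its 24 h level, a difference of 1.56 on the log2(FPKM + 1) scale (SE 0.0611, adjusted p = 3.9e-09), which understates a gene this low. Mycl averaged 5.08 times its 24 h level, a log2 difference of 2.07 (SE 0.0664, adjusted p = 8.9e-10). The paralogues thus moved in opposite directions, Myc against Mycn and Mycl.

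Among the MAX partners, Mxd3 averaged 0.0683 times its 24 h level at 144 h and fell by 2.83 on the log2 scale (adjusted p = 2.7e-08). Mxd4, of the same protein group, averaged 2.19 times its 24 h level (1.10 on the log2 scale, adjusted p = 4.7e-08). Mxi1 averaged 2.72 times its 24 h level (1.32, adjusted p = 2.4e-08), and Mnt 1.71 times (0.70, adjusted p = 0.00012). Max stood at 0.19 on the log2 scale, with a 95% interval of -0.08 to 0.46 (adjusted p = 0.20). With CT-179 144 h replicate 2 left out the same 0.19 passed (adjusted p = 4.5e-05). Mga stood at 0.04, with a 95% interval of -0.66 to 0.75 (adjusted p = 0.91).

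In CT-179 cells the comparison of the 2 times gave the same 7 members past the threshold in the same directions, beside 65.3% of all genes tested, of which 33.2% were higher and 32.1% lower. Without CT-179 144 h replicate 2, 7 members passed beside 85.6%. The times did not overlap for 8 members, all but Mga, beside 67.5% of all genes. The values were -1.56 for Myc, 1.75 for Mycn, 1.96 for Mycl, -2.92 for Mxd3, 1.25 for Mxd4, 1.32 for Mxi1 and 0.52 for Mnt, all as log2 fold changes of 144 h over 24 h. Max had 0.24 (adjusted p = 0.11) and Mga -0.41 (adjusted p = 0.27). With that library left out Mga stood at 0.08 (adjusted p = 0.19). The vehicle and CT-179 time courses share no library, but they were fitted with 1 shared error.

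Genes around the network were set beside the members for the same contrast in vehicle cells, where the median log2 fold change of all genes tested was 0.01, 34.1% of them rose and 32.4% fell. Of 26 genes of ribosome biogenesis and the nucleolus, classic MYC targets, 26 fell and 0 rose, with a median of -1.34. Among them Ncl, the nucleolar protein nucleolin, stood at -1.61 on the log2 scale (adjusted p = 6.2e-09), and Nop2, an RNA methyltransferase of the nucleolus, -1.54. Of 25 tested targets in growth metabolism and translation, 22 fell and 2 rose, with a median of -1.12. Odc1, the first enzyme of polyamine synthesis, had -1.12 (adjusted p = 1.9e-06) and Shmt1, a serine hydroxymethyltransferase, -3.03. The 2 that rose were Slc7a5 (1.93) and Slc3a2 (1.73), the subunits of the large neutral amino acid transporter.

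Of 17 cell cycle targets, 17 fell, with a median of -2.38. Mcm5, part of the replicative helicase, had -3.60, Ccnd1 -2.86, Ccnd2 -3.37 and Cdk4 -0.69 (adjusted p = 0.0021). Of 15 tested genes that MYC is known to repress, 10 rose and 3 fell, with a median of 1.29. Ndrg2, a gene of differentiated astrocytes, had 3.93, the CDK inhibitor Cdkn2b 2.58 and the CDK inhibitor Cdkn1a 1.53. The 3 that fell were Cebpa, Col3a1 and Gadd45a, a myeloid and fat cell transcription factor, a collagen and a stress gene. The lists' medians stand beside the all-gene median, and no set was tested.

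Of 8 tested genes of the wider partner network, 1 rose and 4 fell. Mxd1, a further MAX partner and antagonist, had 1.65, and Cdca7, a MYC-binding protein of dividing cells, -2.86. Of 22 cofactors and regulators of MYC turnover, 3 rose and 11 fell. These are 5 of 8 and 14 of 22 called, beside 66.5% of all genes tested. Cip2a, which protects MYC from dephosphorylation, had -2.87, and Aurka, a mitotic kinase that stabilises MYCN protein, -3.34. The chromatin scaffold Wdr5, which MYC binds, had -0.86. Of 14 tested genes upstream of the MYC genes, 6 rose and 4 fell: Gli1, the readout of SHH signalling, had 2.63, and Dusp6, a readout of ERK signalling, -5.46.

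**Figure D3:**
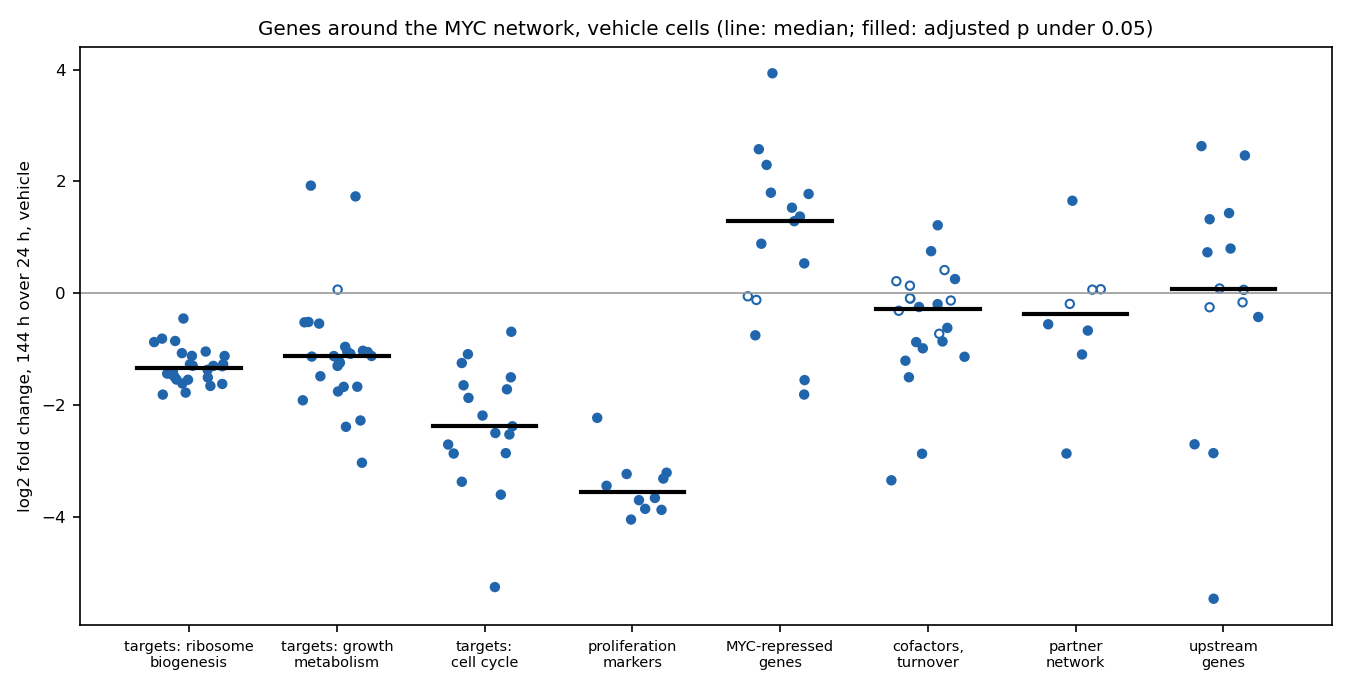
Log2 fold change of 144 h over 24 h in vehicle cells, on the log2(FPKM + 1) scale, for each tested gene of 8 lists; filled points pass an adjusted p of 0.05 and lines are list medians. All 26 ribosome biogenesis genes and all 17 cell cycle genes lie below 0, the median of the MYC-repressed genes is 1.29, and that of the proliferation markers is -3.55.

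Markers of cell state and of cell types also differed with time. All 10 of 10 proliferation markers fell, with a median of -3.55, and Mki67, the proliferation antigen, had -3.70 (adjusted p = 1.6e-08). The summed level of 4 of them was 23.8 FPKM at 144 h and 344 FPKM at 24 h in vehicle cells. The 5 astrocyte markers summed to 480 FPKM at 144 h and 97.8 FPKM at 24 h, and 5 of 5 reached 1 FPKM at 144 h against 2 of 5 at 24 h. Gfap, the intermediate filament of astrocytes, had 93.7 FPKM at 144 h and 0.411 FPKM at 24 h. The 6 neuron markers summed to 27.5 FPKM at 144 h and 5.63 FPKM at 24 h. The 9 markers of granule neuron precursors and SHH medulloblastoma summed to 74.3 FPKM at 144 h and 30.2 FPKM at 24 h, and the 4 of oligodendrocyte precursors to 92.7 FPKM at 144 h and 37.2 FPKM at 24 h. Of the microglia, endothelium and red cell markers none reached 1 FPKM in any cell group. In bulk RNA, fewer cells of a type and less RNA per cell cannot be told apart, and the part of these changes in the members' values was not tested.

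The comparison of CT-179 with vehicle at 24 h asked whether OLIG2 inhibition changed the genes within a day. No member passed (0 of 9, beside 0.264% of all genes tested). No member had an unadjusted p under 0.05, beside 640 of 12510 genes tested. The log2 fold changes ran from -0.25 for Mga (95% interval -0.95 to 0.45) to 0.09 for Max (-0.19 to 0.36). Myc had -0.09 (95% interval -0.30 to 0.11), Mycn 0.04 (-0.10 to 0.17) and Mycl 0.08 (-0.07 to 0.23). The 24 h libraries had Mycn at only 0.247 to 0.385 FPKM, under the filter minimum of 1 FPKM. Mycn was tested there only because its 144 h libraries pass that filter. The log2(FPKM + 1) scale also narrows the value and interval of a gene this low. The CT-179 and vehicle ranges did not overlap for Max and Mga, 2 of 9, beside 37.3% of all genes.

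Without CT-179 144 h replicate 2, which left the 24 h libraries and fold changes as they were and narrowed the shared error, 2 of 9 members passed at 24 h, 1 higher and 1 lower, beside 22.2% of all genes tested (8.08% higher and 14.1% lower). Mga fell by 0.25 on the log2 scale (SE 0.0497, adjusted p = 0.0055), and Max rose by 0.09 (SE 0.0279, adjusted p = 0.045). A share of 2 in 9 is close to the background. With a correction for gene length as well, Mga had -0.11 (adjusted p = 0.093), and Max and Mxd4 passed at 0.09 and 0.08 (adjusted p = 0.029 and 0.034). The length-corrected fit called 1153 higher and 851 lower of 12454 genes. Across 12454 genes, which are not independent replicates, the 24 h fold change had a Spearman rho of -0.408 with exonic length in these libraries, and the part of length in the Mga value was not tested further.

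After 144 h of CT-179 no member passed either, 0 of 9 beside 3.88% of all genes tested. An unadjusted p under 0.05 was found for 4 members, beside 3647 of 12510 genes tested. These 4 were Mycn, Mxd4, Mnt and Mga, whose CT-179 and vehicle ranges did not overlap, beside 46.2% of all genes with ranges apart. Mycn stood at 0.23 on the log2 scale (95% interval 0.09 to 0.36, adjusted p = 0.071), and passed when CT-179 144 h replicate 1 was left out (0.26, adjusted p = 0.049). Mxd4 had 0.16 (0.03 to 0.30, adjusted p = 0.14), Mnt -0.24 (-0.46 to -0.01, adjusted p = 0.17) and Mga -0.71 (-1.41 to -0.0039, adjusted p = 0.17). Myc had 0.10 (-0.10 to 0.31) and Mycl -0.03 (-0.18 to 0.11). Max, at 0.14, and Mxi1, at 0.05, had intervals across 0, as did Mxd3 at -0.02.

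When CT-179 144 h replicate 2 was left out, 4 of 9 members passed at 144 h, 2 higher and 2 lower, beside 28.7% of all genes tested (11.8% higher and 16.9% lower). This share rests on few genes and was not tested against the background. Mycn rose by 0.20 on the log2 scale (SE 0.0612, adjusted p = 0.032) and Mxd4 by 0.10 (SE 0.0239, adjusted p = 0.0100). Mga fell by 0.21 (SE 0.0556, adjusted p = 0.016) and Mxd3 by 0.22 (SE 0.0586, adjusted p = 0.017). The 144 h libraries then left had Mxd3 at only 0.541 to 0.868 FPKM, under the filter minimum of 1 FPKM. Mxd3 was tested there only because its 24 h libraries pass that filter. Myc was at 0.01, with a 95% interval of -0.12 to 0.13, Mycl at 0.01 (-0.10 to 0.12) and Max at -0.04 (-0.11 to 0.03). With the length correction as well, Mycn had 0.19 (adjusted p = 0.058) and Mga -0.08 (adjusted p = 0.21), while Mxd4 (0.17), Mxi1 (0.16) and Mxd3 (-0.26) passed. The length-corrected fit called 1592 higher and 1344 lower of 12454 genes. Rescaling to TPM with all libraries turned Mxd4 to -0.03 and Myc to -0.08. Exonic length had a Spearman rho of -0.583 with the 144 h fold change across 12505 genes with all libraries and -0.343 across 12454 genes without that library. Summed marker levels also differed between the groups with all libraries. Oligodendrocyte precursor markers summed to 55.5 FPKM in CT-179 cells and 92.7 FPKM in vehicle cells. Those of granule neuron precursors and SHH medulloblastoma summed to 51.7 FPKM in CT-179 cells and 74.3 FPKM in vehicle cells. This last list is that of the tumour class of these cells and holds Gli1 and Ptch1. In the same order, astrocyte markers summed to 414 and 480 FPKM and neuron markers to 24.5 and 27.5 FPKM. Oligodendrocyte markers summed to 3.09 and 3.15 FPKM, and proliferation markers to 19.6 and 23.8 FPKM. The part of these markers in the members' values was not tested.

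**Figure D4:**
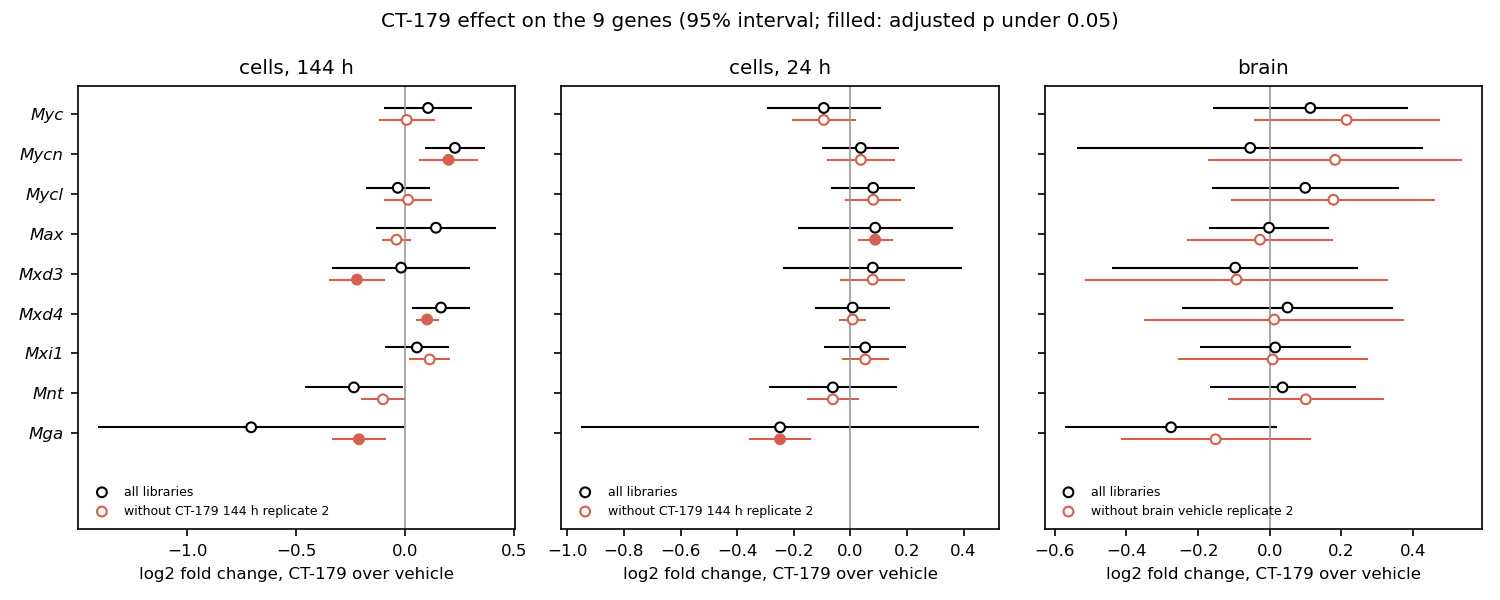
Log2 fold change of CT-179 over vehicle for each gene at 144 h, at 24 h and in brain, with 95% intervals; black, all libraries, and red, without CT-179 144 h replicate 2 (cells) or brain vehicle replicate 2 (brain); filled points pass an adjusted p of 0.05, and each panel has its own x range. With all libraries no point is filled, and without the cell library 4 are filled at 144 h (Mycn, Mxd4, Mga, Mxd3) and 2 at 24 h (Max, Mga). Mxd3 is under 1 FPKM in the 144 h libraries behind its red point, and Mycn is under 1 FPKM in every 24 h library.

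The effect of CT-179 at 144 h minus that at 24 h passed for 0 of 9 members, beside 0% of all genes tested by limma, of which 574 of 12510 had an unadjusted p under 0.05. The differences ran from -0.46 for Mga to 0.20 for Myc. Without CT-179 144 h replicate 2 they ran from -0.30 for Mxd3 (adjusted p = 0.074) to 0.16 for Mycn (adjusted p = 0.36), again with 0 of 9 past the threshold, beside 2.66%. Under alternatives some members passed. With array weights, which give libraries that stand apart less weight, Mxd3 had -0.26 (limma adjusted p = 0.032), Max -0.12 (0.046) and Mxd4 0.09 (0.045). Over all genes, array weights called 604 higher and 627 lower of 12510. With CT-179 144 h replicate 2 left out, Mxd3 also passed under median-of-ratios scaling, at -0.33 (limma adjusted p = 0.047), and under the length correction, at -0.31 (0.046). Over all genes these called 124 higher and 183 lower of 12445, and 164 higher and 230 lower of 12454. At 144 h Mxd3 was under 1 FPKM in every library but CT-179 replicate 2.

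The same lists were compared between CT-179 and vehicle. At 24 h, 0 genes of the 8 lists passed with all libraries, beside 0.264% of all genes tested. Without CT-179 144 h replicate 2, where 22.2% of all genes passed, the calls at 24 h were 6 of 26 ribosome genes, 9 of 25 growth genes, 3 of 17 cell cycle genes, 2 of 15 MYC-repressed genes, 2 of 8 partner genes, 6 of 22 cofactors, 6 of 14 upstream genes and 2 of 10 proliferation markers. Mki67 then had -0.41 at 24 h (limma adjusted p = 0.00036, against 0.89 with all libraries) and Gli1 -0.25 (0.0031, against 0.62). At 144 h, Gli1 had 11.1 ± 1.51 FPKM in CT-179 cells and 20.4 ± 0.890 FPKM in vehicle cells (SD, n = 3 each), a log2 difference of -0.83 (limma adjusted p = 0.0016). Foxm1, a cell cycle transcription factor, had 2.24 ± 0.494 FPKM in CT-179 cells and 3.52 ± 0.0127 FPKM in vehicle cells (SD, n = 3 each), and fell by 0.49 (limma adjusted p = 0.022). Dusp6 rose by 0.31 and Btg1, an antiproliferative gene on the MYC-repressed list, rose by 0.30. These 4 also passed without CT-179 144 h replicate 2, at -0.73, -0.36, 0.30 and 0.22 in the order given. Of 22 alternatives run for each gene, Btg1 no longer passed in 14, Foxm1 in 4, Dusp6 in 4 and Gli1 in 1. Leaving out vehicle 144 h replicate 1, 2 or 3 ended the calls of Foxm1 and Btg1, and replicate 2 or 3 that of Dusp6.

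Of the MYC targets at 144 h, 0 of 26 ribosome genes and 0 of 17 cell cycle genes passed with all libraries, and their medians were 0.10 and -0.02 beside an all-gene median of -0.05. With CT-179 144 h replicate 2 left out, 2 ribosome genes rose and 4 fell, 7 growth genes rose and 3 fell, and 3 cell cycle genes rose and 2 fell. These are 6 of 26, 10 of 25 and 5 of 17, beside 28.7% of all genes tested (11.8% higher and 16.9% lower). Ncl had 0.08, Odc1 0.13, Ccnd1 -0.05, Ccnd2 0.06 and Cdkn1a 0.01 at 144 h, and none of these 5 passed with all libraries. With CT-179 144 h replicate 2 left out, Ccnd2 alone of the 5 passed, at 0.29 (adjusted p = 0.00012), and Ccnd1 and Cdkn1a turned sign, to 0.06 and -0.12. Cdk4, with the 4 E-boxes shown above, had 0.45 (adjusted p = 0.12) with all libraries and 0.23 (adjusted p = 0.00041) without CT-179 144 h replicate 2. Mki67 had -0.58 (adjusted p = 0.098) with all libraries and -0.32 (adjusted p = 0.0017) without it.

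In brain, the comparison of CT-179 with vehicle passed for 0 of 9 members, beside 0% of all genes tested (0 of 13422 by limma, with 490 at an unadjusted p under 0.05). The log2 fold changes ran from -0.28 for Mga to 0.11 for Myc, with adjusted p-values of 0.97 or more, and all 9 pairs of ranges overlapped, beside 10.3% of all genes with ranges apart. Without vehicle replicate 2 they ran from -0.15 for Mga to 0.21 for Myc, with 0 of 9 past the threshold beside 0.00754%. Mycn turned sign, at 0.18 without that library and -0.05 with it. Vehicle replicate 2 held the highest Mycn value of the 6 brains. The authors' deposited log2 fold change followed vehicle over CT-179 without that library (r 0.996 across genes). In it the members ranged from -0.33 to 0.20, with a false discovery rate of 1 for each. No gene of the 8 lists passed. Whole brain holds many cell types, with summed oligodendrocyte markers of 4834 FPKM in CT-179 brains and 4094 FPKM in vehicle brains, and the proliferation markers summed to only 7.28 FPKM in CT-179 brains and 8.41 FPKM in vehicle brains.

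The genes whose levels were most like a member over the 12 cell libraries were named by Pearson's r of log2(FPKM + 1), over 10928 genes compared. The libraries fall into separate times, so a high r mostly records the step between 24 h and 144 h, and it is a description with no test. Myc was most like Dus1l (0.999), Prr5 (0.998) and Bop1 (0.998), the last a nucleolar protein of ribosome assembly, and 325 genes exceeded 0.99 with it. Mycn was most like Cnn3, Marchf3 and Oat (0.998 each), and Mycl most like Rftn2 (1.000), Lpar1 (0.999) and Hepacam (0.999), a glial adhesion protein. Mxd3 was most like Pimreg, Cdk2 and Birc5 (0.999 each), genes of dividing cells.

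Mxd4 was most like Hey1, Cst3 and Cadm4 (0.999 each), and Mxi1 most like Wbp1l (0.999), Bmf (0.998) and Tmeff1 (0.998). Mnt was most like Samd4b (0.998), Mroh1 (0.997) and Clip2 (0.996). Mga was most like Cep350 (0.998), Nbea (0.996) and Ubr3 (0.995), with 34 genes over 0.99. Arpc1a and Slc25a38 (0.986 each) were among the genes most like Max, and 0 genes exceeded 0.99 with it. The likeness for Max and Mga includes the shared position of CT-179 144 h replicate 2, which was high for Max and low for Mga.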

How the data were processed

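RNA was sequenced as pairs of 100 bases after SMARTer library preparation, per the labels' protocols. The submitters' processing notes name the genome mm10, the aligner STAR 2.6.0c, the trimmer Trim Galore 0.5.0, the counter HTSeq 0.6.1p2, and edgeR 3.28.1 under R 3.6, while settings, annotation and strand are not given in the sources used here. In both tables the deposited unit was FPKM. The brain table holds further columns that the authors made: log2 values (fold change and abundance), a score (likelihood ratio), p-values and false discovery rates. FPKM are not counts, so no count model was run. Depth was implied from low values and GENCODE exonic lengths: within 0.1 read and up to 20 reads, 88.1% to 90.2% of low values were whole reads in cells and 92.3% to 97.4% in brain.

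The filter kept genes reaching 1 FPKM in 3 or more libraries. They were tested with limma 3.58.1 (R 4.3.3) on log2(FPKM + 1), two-sided, with a mean-variance trend and Benjamini-Hochberg adjustment at 0.05. A single model took all 12 cell libraries (12510 genes), and a second took the 6 brain libraries (13422 genes). Fold changes on this scale understate low genes. Nothing in the labels says that a replicate number pairs libraries. Deviations of same-numbered libraries from their group means correlated at 0.11, 0.24 and 0.14 between CT-179 144 h and CT-179 24 h, all over 0.1. Differently numbered libraries of these groups ran from -0.24 to 0.15. Deviations from a group mean cancel within the group, and CT-179 144 h replicate 2 stands apart. The same-numbered values are therefore not independent and cannot by themselves show pairing. The values given for that comparison come from the fit without pairs, and the replicate number as a block was an alternative. Every other comparison had at least 1 pair under 0.1: the cell pairs ran from -0.13 to 0.06, the brain pairs from -0.39 to 0.11.

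The members and gene lists were chosen with earlier results of these data known. The text names all members, up to 4 genes with the smallest p among those that passed in each list and comparison, 8 genes always (Gli1, Mki67, Odc1, Ncl, Cdk4, Ccnd1, Ccnd2 and Cdkn1a), and the 3 genes most like each member. Some genes that this rule takes are not reported here. Slc3a2, Gfap, Tpm3-rs7 and the 3 falling genes of the repressed list were named after their values were seen. Tested on simulated data, changes of 0.5 on the log2 scale were recovered in 78% of cases at 24 h (12541 genes), 77% at 144 h (12555 genes), 75% for time in vehicle (12371 genes) and 56% in brain (13509 genes). The share of false calls among all calls there was 8.47%, 3.83%, 7.53% and 3.82% in the same order, beside the nominal 5%. These shares describe the simulated data only. They need not hold in the real cell fit, where CT-179 144 h replicate 2 widened the error. Alternatives were median-of-ratios and TPM scaling, a pseudocount of 0.1, no filter, a length correction, array weights, the replicate number as a block, separate fits, and each library left out. Promoter letters were searched in RefSeq windows on GRCm38.p6 with Python 3.11.15.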

Additional observations from a re-analysis of the deposited data

How the results depend on the processing

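The count of members past the threshold for time and in brain stayed within 1.5 times its value in every alternative run. For CT-179 at 24 h (0 with all libraries) it was 2 with array weights and 1 (Mga) in a separate fit. When CT-179 144 h replicate 2 was left out, it was 4 under median-of-ratios scaling and 2 under the length correction. Over all genes, array weights called 1184 higher and 2135 lower of 12510, and the separate fit 701 higher and 1295 lower of 11486. With that library left out, median-of-ratios scaling called 2623 higher and 1067 lower of 12445, and the length correction 1153 and 851 of 12454. For CT-179 at 144 h (0) it was 1 with median-of-ratios scaling and 6 with array weights. Over all genes these called 114 higher and 297 lower of 12481, and 2673 higher and 3317 lower of 12510. Without that library the count of members was 5 with median-of-ratios scaling and 3 with the length correction. Over all genes the calls were then 2777 higher and 1406 lower of 12445, and 1592 higher and 1344 lower of 12454. For the difference between times (0) it was 3, 1 and 1 with array weights, median-of-ratios scaling and the length correction, the last 2 without that library. All genes called there were 604 higher and 627 lower of 12510, 124 and 183 of 12445, and 164 and 230 of 12454. Leaving out each library gave 0 to 2 members at 24 h, 0 to 4 at 144 h, 0 to 0 for the difference, 7 to 8 for time in vehicle cells, 7 to 8 in CT-179 cells and 0 to 0 in brain. With the replicate number as a block the counts were 0 at 24 h, 0 at 144 h, 0 for the difference, 7 and 7 for time and 0 in brain, so the block changed no count of members, though Btg1 no longer passed at 144 h. In the time comparison of CT-179 cells, where same-numbered deviations all correlated above 0, the same 7 members passed with the block, in the same directions. CT-179 144 h replicate 1 nevertheless correlated more with CT-179 24 h replicate 3 (0.15) than with replicate 1 (0.11).

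Signs turned in the log2 values below, and the cause was not tested. That library means CT-179 144 h replicate 2. For CT-179 against vehicle at 24 h, TPM scaling gave -0.051 for Mxd4, -0.056 for Ccnd1, -0.026 for Ncl and -0.055 for Odc1. Array weights gave -0.0019 for Mxd4 and -0.0021 for Ccnd1. Leaving out each library in turn gave -0.00011 to 0.012 for Ccnd1, -0.0023 to 0.016 for Mxd4, -0.037 to 0.061 for Odc1, -0.0042 to 0.062 for Mycn and -0.016 to 0.095 for Ncl. For CT-179 against vehicle at 144 h, median-of-ratios scaling gave 0.038 for Mycl, 0.019 for Mxd3 and 0.017 for Ccnd1. TPM scaling gave -0.083 for Myc, -0.048 for Max, -0.025 for Mxd4, -0.13 for Mxi1, -0.13 for Ccnd2, -0.17 for Cdkn1a, -0.11 for Ncl and -0.064 for Odc1. The length correction gave -0.012 for Myc, 0.014 for Ccnd1 and -0.021 for Cdkn1a. Array weights gave 0.018 for Mycl, -0.044 for Max, 0.068 for Ccnd1 and -0.081 for Cdkn1a. Median-of-ratios scaling with that library left out gave 0.066 for Mycl, 0.11 for Ccnd1 and -0.078 for Cdkn1a. The length correction with that library left out gave -0.023 for Myc, 0.020 for Mycl, -0.044 for Max, 0.080 for Ccnd1 and -0.13 for Cdkn1a. Leaving out each library in turn gave -0.22 to 0.085 for Mxd3, -0.065 to 0.29 for Ccnd2, -0.061 to 0.013 for Mycl, -0.040 to 0.23 for Max, -0.12 to 0.058 for Ccnd1 and -0.12 to 0.11 for Cdkn1a.

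For the difference between times, a pseudocount of 0.1 gave -0.0031 for Mxi1. TPM scaling gave -0.078 for Max and -0.13 for Mxi1. Array weights gave -0.12 for Max. Median-of-ratios scaling with that library left out gave -0.13 for Max and 0.031 for Mga. The length correction with that library left out gave -0.14 for Max and 0.025 for Mga. Leaving out each library in turn gave -0.30 to 0.0059 for Mxd3, -0.038 to 0.060 for Mxi1, -0.13 to 0.15 for Max and -0.72 to 0.037 for Mga. For time in vehicle cells, median-of-ratios scaling gave -0.011 for Mga. The length correction gave -0.069 for Mga. Median-of-ratios scaling with that library left out gave -0.0064 for Mga. The length correction with that library left out gave -0.068 for Mga. For time in CT-179 cells, array weights gave 0.040 for Mga. Median-of-ratios scaling with that library left out gave 0.025 for Mga. Leaving out each library in turn gave -0.67 to 0.081 for Mga. In brain, TPM scaling gave -0.041 for Mxd4, -0.073 for Mxi1 and -0.049 for Mnt. Array weights gave -0.032 for Myc, -0.052 for Mxd4 and -0.027 for Mnt. Leaving out each brain library in turn gave -0.22 to 0.18 for Mycn, -0.035 to 0.036 for Max, -0.044 to 0.17 for Mxd4, -0.21 to 0.018 for Mxd3, -0.048 to 0.084 for Mxi1 and -0.012 to 0.10 for Mnt.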
